A study of Rattus norvegicus with 8 samples.

Results

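Among the genes measured in these rat livers, 10 stood out for very large differences between young and 12-week animals while lying outside the large metabolic gene families: A1bg, Rup2, Slc41a2, Mettl7b, Alox15, Qpct, Qsox1, Vnn1, Hao2 and Acsm3. They were selected on their measured differences between 2 or 4 weeks and 12 weeks and taken by name, and all 10 of them were found among the 14511 genes with a value, each through 1 probe set. Those differences therefore chose the genes and are given below as a description, without a test. The rats were female Wistar, a widely used outbred stock, in 4 groups of 2 arrays each: rats aged 2, 4 and 12 weeks, and rats killed 8 h after partial hepatectomy (PH), in which 2/3 of the liver mass, the lateral lobes, had been cut away. How old the PH rats were is not stated in the labels, and sham surgery was not analysed here, so surgery and age cannot be told apart when PH is set against 12 weeks. The titles name the 2 arrays of each group biological replicates, but the design mentions duplicates of each sample. The p-values below cover only the spread between such pairs, which may be technical in part.

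The rat liver goes through weaning and puberty between these ages. It moves from a milk diet rich in fat to chow, and in females the pituitary settles into the nearly continuous growth hormone release that sets much of the sex-dependent expression of the adult rat liver. Partial hepatectomy makes the remaining hepatocytes leave quiescence, with the first wave of gene expression in the hours before DNA synthesis begins. The 10 genes have unrelated roles. Some encode secreted proteins (A1bg, Rup2), some act on proteins in or on their way out of the cell (Qpct, Qsox1), one carries magnesium (Slc41a2), and the others are enzymes of lipids, coenzyme A or small thiols (Alox15, Acsm3, Hao2, Vnn1, Mettl7b).

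Levels are robust multi-array average (RMA) values on the log2 scale, in which 1 unit is a 2-fold difference. Within a group, r over genes (which are not independent) lay between 0.9517 at 12 weeks and 0.9798 after PH. At 12 weeks 1838 genes were at least 2-fold apart between the pair, against 432 to 621 in the other groups. The median level of 1267 olfactory, vomeronasal and taste receptor genes, which a liver is not expected to express, was 4.73 and 3.912 on the 12-week arrays and 3.998 to 4.646 on the others. The liver identity of the samples was clear in the hepatocyte markers, whose mean level over 8 genes lay between 13.06 and 13.39 on all 8 arrays and of which 0 were called in any comparison below by limma. Without detection calls, low values may hold little but background, and their fold differences are then understated.

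The promoters of the members that were higher at 12 weeks are shown first, because these genes fell into 2 timings. A1bg and Rup2 were still low at 4 weeks, while Slc41a2 and Mettl7b were already high then. RefSeq promoter sequences of build GRCr8 were held for 8 of the 10 genes. The stretches are the 250 bases before the transcript start, 5′ to 3′ on the gene's strand: chr7:94387497-94387746 for A1bg (minus strand), chr8:43551457-43551706 for Rup2 (minus strand), chr7:22271063-22271312 for Slc41a2 (plus strand, the first of 2 starts) and chr7:1975981-1976230 for Mettl7b (minus strand). The A1bg stretch lies before the start of an annotated transcript but inside the span of the gene, which reaches 94387922 on this strand's 5′ side. Capitals mark matches on either strand to the STAT motif TTCNNNGAA, the Onecut motif ATTGAT, the HNF1 core GTTAAT or the TATA motif TATAAA.
A1bg: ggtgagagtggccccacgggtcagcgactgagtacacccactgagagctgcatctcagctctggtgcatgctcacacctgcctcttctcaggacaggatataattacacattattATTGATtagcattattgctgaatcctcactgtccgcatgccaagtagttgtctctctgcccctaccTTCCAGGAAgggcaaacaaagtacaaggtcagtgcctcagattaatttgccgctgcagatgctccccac
Rup2: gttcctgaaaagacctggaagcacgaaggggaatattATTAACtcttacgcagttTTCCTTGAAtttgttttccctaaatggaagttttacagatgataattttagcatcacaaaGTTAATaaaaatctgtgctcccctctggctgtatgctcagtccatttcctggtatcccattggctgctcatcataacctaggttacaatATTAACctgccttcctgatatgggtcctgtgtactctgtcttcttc
Slc41a2: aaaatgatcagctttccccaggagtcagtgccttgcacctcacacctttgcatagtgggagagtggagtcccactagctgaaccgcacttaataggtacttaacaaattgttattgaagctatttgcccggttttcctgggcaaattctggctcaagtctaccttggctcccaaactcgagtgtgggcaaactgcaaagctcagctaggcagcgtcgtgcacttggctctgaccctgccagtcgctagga
Mettl7b: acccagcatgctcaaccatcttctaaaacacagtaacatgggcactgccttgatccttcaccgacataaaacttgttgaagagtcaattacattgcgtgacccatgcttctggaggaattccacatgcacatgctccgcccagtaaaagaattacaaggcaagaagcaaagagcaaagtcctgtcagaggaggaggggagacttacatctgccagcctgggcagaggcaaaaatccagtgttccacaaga

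The STAT motif, bound by factors such as the growth hormone effector STAT5, occurred in 2 of the 8 members with a sequence, A1bg and Rup2, and in 7.67% of the 33469 RefSeq promoter windows of the same length. In A1bg the STAT match was TTCCAGGAA, 69 to 61 bases before the start, and in Rup2 it was TTCCTTGAA, 195 to 187 bases before. The A1bg stretch also held ATTGAT, the Onecut motif, 135 to 130 bases before the start (7.10% of windows). Rup2 held the HNF1 core at 3 places, and Acsm3 held it at 1 (6.45% of windows). Further motifs searched were FOX TGTTTAC (in Acsm3; 3.21% of windows), the nuclear receptor core AGGTCA (in A1bg and Acsm3; 14.1%), CCAAT (in Rup2, Qsox1 and Acsm3; 34.0%), TATAAA (in Hao2; 12.9%) and AGATAA, bound by GATA factors (in 0 members; 10.3%). Neither the Slc41a2 nor the Mettl7b stretch, nor that of Qpct, held any of the 8 motifs. The A1bg and Hao2 stretches lie inside the annotated span of their genes, so their matches are upstream of 1 transcript start and not of the whole gene. A match is a description of letters and says nothing of binding. The base composition of the stretches differed too: GC content was 50.8% in A1bg and 40.0% in Rup2, against 62.0% in Qpct and 68.4% in Qsox1, with a median of 51.2% over all windows.

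A1bg, a plasma glycoprotein of the immunoglobulin superfamily known to be more abundant in female than in male rat liver, read 5.40 and 5.54 at 2 weeks, 6.29 and 6.27 at 4 weeks, 11.85 and 12.66 at 12 weeks, and 12.02 and 12.42 after PH. The young arrays were thus all low and the 12-week and PH arrays all high, with no value in between. From 12 weeks it differed by -6.79 ± 0.30 at 2 weeks (log2, moderated SE), a 110-fold lower level, and by -5.98 ± 0.30 at 4 weeks. Both were the largest differences of the 14511 genes in their comparison.

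Rup2, a small secreted protein first described in rat urine, had the same shape. Its levels were 5.12 and 5.30 at 2 weeks, 5.20 and 6.35 at 4 weeks, 10.64 and 12.52 at 12 weeks, and 10.99 and 11.75 after PH. The 12-week arrays enclosed the PH arrays and differed from each other by 1.89, a gap reached by 1.2% of all genes in that group. From 12 weeks it differed by -6.37 ± 0.61 at 2 weeks and by -5.80 ± 0.61 at 4 weeks. Rup2 was also the gene whose profile over the 8 arrays was most like that of A1bg (Pearson r = 0.990), and Cyp3a9, a steroid-metabolising cytochrome P450, followed for both (r = 0.985 with A1bg and 0.986 with Rup2). These correlations over 8 arrays in 4 groups are descriptions and rest mainly on the step between groups.

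Slc41a2, a magnesium transporter, read 6.76 and 5.99 at 2 weeks, 11.08 and 10.64 at 4 weeks, 11.85 and 12.59 at 12 weeks, and 13.05 and 12.99 after PH. Every 4-week array was thus well above the 2-week arrays, and the PH arrays were the highest of all. Mettl7b, an alkyl thiol methyltransferase of the endoplasmic reticulum and lipid droplets, read 5.56 and 6.04 at 2 weeks, 9.63 and 11.27 at 4 weeks, 12.71 and 12.08 at 12 weeks, and 11.88 and 11.07 after PH. Its 4-week arrays were 1.65 apart, a gap reached by 0.5% of genes, and the upper one lay within the range of the PH arrays. On the way from the 2-week to the 12-week level, taken as 0 and 100%, the 4-week liver stood at 76.8% for Slc41a2 and 70.5% for Mettl7b, against 11.9% for A1bg and 8.9% for Rup2. With each array left out in turn, these shares ran from 72.2% to 81.9%, from 58.0% to 83.0%, from 11.1% to 12.8%, and from 0% to 17.9%. The genes most like both Slc41a2 and Mettl7b were Ugt2a3, a glucuronosyltransferase (r = 0.980 and 0.957), and Pigr, the receptor that carries polymeric immunoglobulins into bile (r = 0.969 and 0.951).

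**Figure D1:**
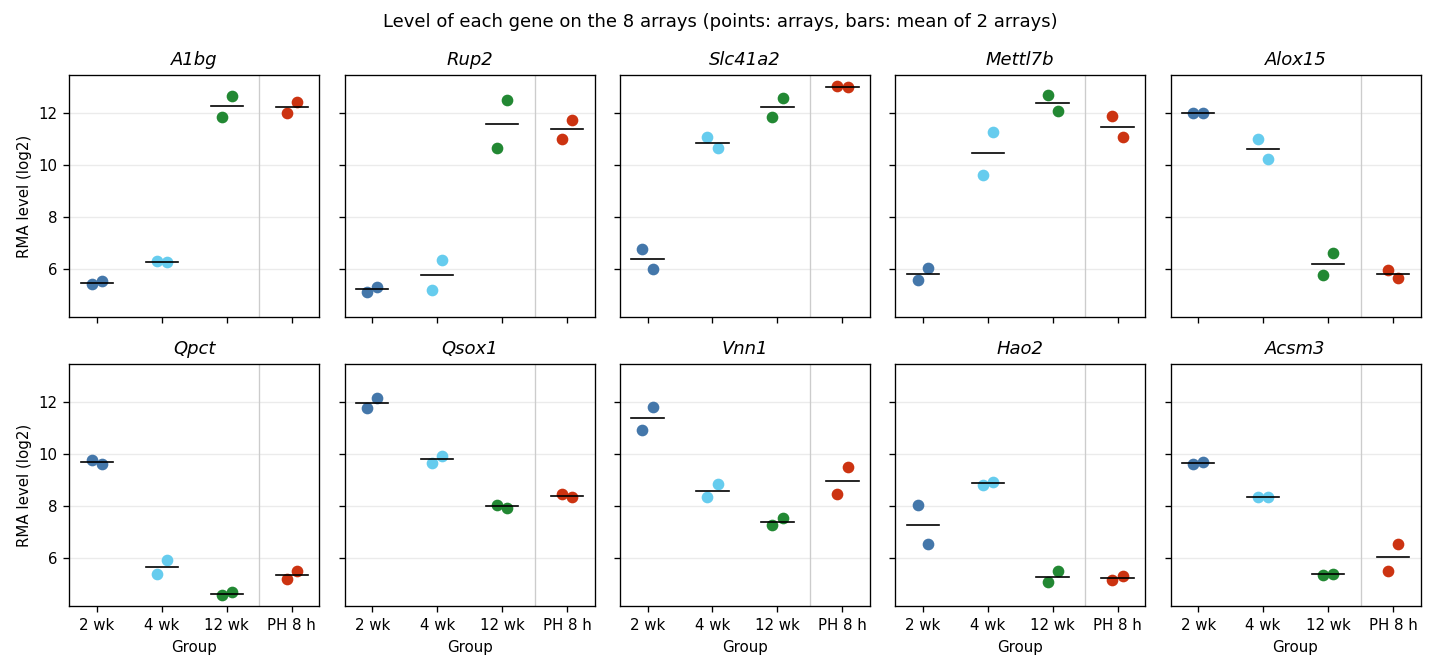
RMA level (log2, vertical axis) of each of the 10 genes in the 4 groups (horizontal axis); points are single arrays and bars the mean of 2 arrays. A1bg and Rup2 are at 6.35 or below at both young ages and at 10.64 or above in the other groups, Slc41a2 and Mettl7b have left the 2-week level by 4 weeks, and Hao2 is highest at 4 weeks.

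The other 6 genes were lower at 12 weeks than at 2 weeks, again in more than 1 timing. Alox15, a lipoxygenase that oxidises arachidonic and linoleic acid, stayed high at 4 weeks: it read 12.01 on each 2-week array, 11.01 and 10.22 at 4 weeks, 5.77 and 6.60 at 12 weeks, and 5.95 and 5.66 after PH. It exceeded 12 weeks by 5.82 ± 0.35 at 2 weeks and by 4.42 ± 0.35 at 4 weeks. Acsm3, a mitochondrial enzyme that activates medium-chain fatty acids, stayed high as well, at 9.62 and 9.71, then 8.36 and 8.34, against 5.33 and 5.39 at 12 weeks and 5.50 and 6.55 after PH. At 4 weeks Alox15 had covered 24.0% and Acsm3 30.5% of the distance to the 12-week level. The profiles most like Alox15 were those of H19, an imprinted growth-related RNA (r = 0.986), and Cyp3a2 (r = 0.980). For Acsm3 they were those of the organic anion transporter Slc22a8 (r = 0.965) and the sorting nexin Snx10 (r = 0.964).

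Qpct, the glutaminyl cyclase that forms the pyroglutamate end of peptide hormones and other secreted peptides, was high at 2 weeks alone. It read 9.77 and 9.63 there, 5.36 and 5.92 at 4 weeks, 4.56 and 4.67 at 12 weeks, and 5.18 and 5.50 after PH. Its 2-week level exceeded that at 12 weeks by 5.09 ± 0.26, and by 4 weeks it had covered 79.8% of this distance. Vnn1, a pantetheinase that releases pantothenate and cysteamine and is known as a target of the fatty acid receptor PPARα, read 10.93 and 11.80 at 2 weeks, 8.33 and 8.85 at 4 weeks, 7.26 and 7.52 at 12 weeks, and 8.45 and 9.48 after PH. It too was nearer to the 12-week level by 4 weeks, at 69.8% of the way. Qsox1, an enzyme that introduces disulfide bonds into secreted proteins, took an intermediate course, with 11.76 and 12.14 at 2 weeks, 9.67 and 9.92 at 4 weeks, 8.03 and 7.93 at 12 weeks, and 8.46 and 8.34 after PH (54.2% of the way at 4 weeks). Qpct was most like the growth genes Igfbp2 (r = 0.993) and Igf2 (r = 0.980), Vnn1 like the phospholipase Pla1a (r = 0.962) and the fatty acid oxidation enzyme Ech1 (r = 0.957), and Qsox1 like lipoprotein lipase Lpl (r = 0.991) and Snx10 (r = 0.988).

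Hao2, a peroxisomal oxidase of medium- and long-chain 2-hydroxy acids, had its highest level at 4 weeks. The 4-week arrays read 8.79 and 8.94, the 2-week arrays 8.03 and 6.52, the 12-week arrays 5.06 and 5.48 and the PH arrays 5.15 and 5.31. It exceeded 12 weeks by 3.60 ± 0.44 at 4 weeks and by 2.00 ± 0.44 at 2 weeks (1.25 without the first 2-week array and 2.76 without the second). The gap of 1.51 between the 2-week arrays was reached by 0.8% of genes. Marker genes of blood cells also differed between these arrays: the mean over 9 neutrophil markers ran from 5.78 to 7.45 at 2 weeks, and over 8 erythroid markers from 6.72 to 7.87. The part of this difference in the Hao2 values was not tested. Hsd11b1, which regenerates active glucocorticoid (r = 0.971), and the galectin Lgals1 (r = 0.964) had the profiles most like it.

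**Figure D2:**
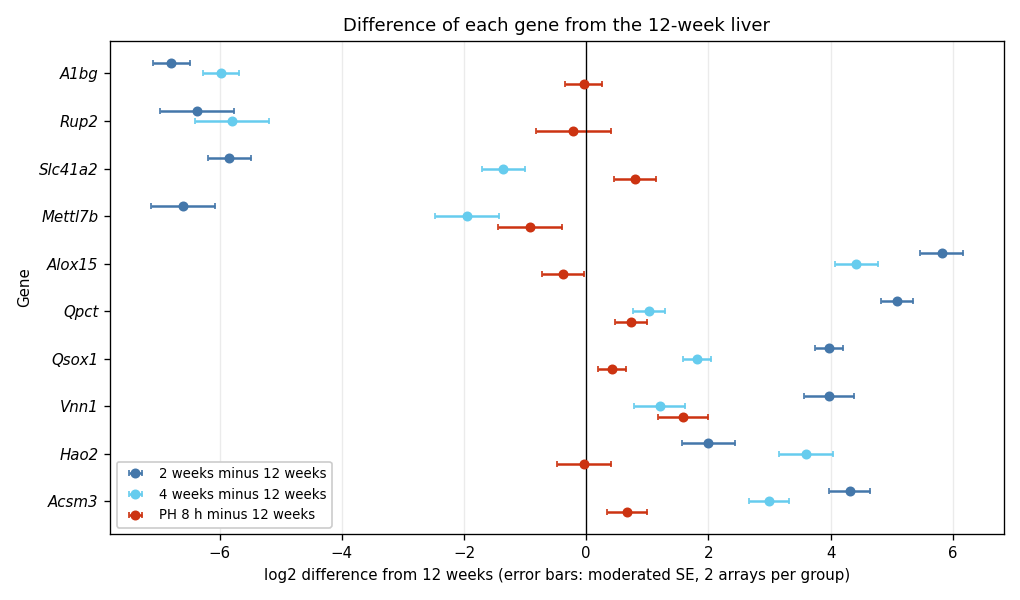
Log2 difference of each gene from the 12-week liver (horizontal axis) at 2 weeks, at 4 weeks and 8 h after PH; points are differences of group means over 2 arrays and error bars the moderated SE. The 2-week points lie between -6.79 for A1bg and 5.82 for Alox15, while the PH points lie between -0.92 for Mettl7b and 1.58 for Vnn1.

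The size of these differences set the genes apart from most others. The larger of the differences at 2 and 4 weeks was smallest for Hao2 (3.60) and largest for A1bg (6.79). In all, 41 genes differed by as much as Hao2 or more, 31 of them not among the 10, and the next smaller difference was 3.58 for Akr7a3. Since the genes were chosen for this size, no test was attached to it. In these bulk samples, fewer cells of a type and less RNA per cell cannot be told apart.

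The step from 2 to 4 weeks, across weaning, was compared directly. Both groups had entered the choice of the genes, so the calls are given as a description of the step and support nothing further. Of the 10 genes, 5 were called at a Benjamini-Hochberg adjusted p under 0.05 over all genes in limma, against 0.455% of all genes: 3 were higher at 2 weeks (0.152% of all genes) and 2 lower (0.303%). The arrays of the 2 ages did not overlap for 9 of the 10 (40.2% of all genes), and 8 were at least 2-fold apart (3.36%). Qpct was higher at 2 weeks by 4.06 ± 0.26 (adjusted p = 8.5e-04), Qsox1 by 2.15 ± 0.23 (adjusted p = 0.00729) and Vnn1 by 2.78 ± 0.41 (adjusted p = 0.0335). Slc41a2 differed by -4.49 ± 0.35 (adjusted p = 0.00209) and Mettl7b by -4.65 ± 0.53 (adjusted p = 0.00993). The genes that did not pass were A1bg (-0.81 ± 0.30), Rup2 (-0.57 ± 0.61), Alox15 (1.40 ± 0.35), Acsm3 (1.31 ± 0.33) and Hao2 (-1.59 ± 0.44), with adjusted p from 0.233 to 0.945. Slc41a2 passed in all 20 alternatives run for it and Qpct in all 19. The filter for genes at or above the median level left Qpct out, and 4 members were called under it. The other calls were lost with 1 array fewer: Mettl7b without the first (-4.41, adjusted p = 0.0837) or the second 2-week array (-4.89, adjusted p = 0.0644), and Qsox1 without the second 2-week (adjusted p = 0.0675), the first 4-week (0.0853) or the second 4-week array (0.0521). Vnn1 was lost without any 1 of the 4 arrays compared (adjusted p from 0.0654 to 0.252) and when all probe sets were tested (0.0901), and Hao2 passed without the first 2-week array (-2.34, adjusted p = 0.0421). Without the second 2-week array the Hao2 difference was -0.84.

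The liver 8 h after PH was then set against the 12-week liver. The PH arrays had no part in the choice of the genes, but the 12-week arrays did, so this difference is not free of it. By limma 0 of the 10 genes were called, against 0.0345% of all genes (0.0207% higher and 0.0138% lower after PH). An unadjusted p under 0.05 was found for 3 of the 10, and for 872 of all 14511 genes. In 8 of the 10 genes the PH level was nearer to the 12-week level than to that of either younger age, and in the other 2, Qpct and Vnn1, it was nearest to 4 weeks. The genes were chosen for young levels far from the 12-week level, and this count was not set against all genes. It is therefore a description and supports nothing further. The median size of the difference over the 10 genes was 0.54, against 0.19 over all genes.

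Among the genes high in the adult, A1bg differed from 12 weeks by -0.04 (95% interval -0.73 to 0.65) and Rup2 by -0.21 (-1.60 to 1.19). The interval of A1bg thus leaves room for less than a 2-fold difference, beside a 110-fold difference between 2 and 12 weeks, whereas that of Rup2 is wider than 2-fold either way. Slc41a2 was 0.80 ± 0.35 above 12 weeks (adjusted p = 0.821) and Mettl7b differed by -0.92 ± 0.53 (adjusted p = 0.988). Slc41a2 stood at 0.43 without the first 12-week array and at 1.17 without the second, and Mettl7b ran from -1.32 without the first PH array to -0.52 without the second. Each had PH arrays that did not overlap the 12-week arrays, as had 6 of the 10 genes and 29.0% of all genes.

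Among the genes high in the young, Vnn1 stood furthest from the 12-week level after PH, 1.58 ± 0.41 above it (unadjusted p = 0.00473, adjusted p = 0.406). It was the single member at least 2-fold apart, as were 2.60% of all genes. Its PH level lay 60.3% of the way from 2 to 12 weeks (47.4% to 73.3% with 1 array left out) and 0.38 from the 4-week mean. Qpct differed by 0.73 ± 0.26 (unadjusted p = 0.0212, adjusted p = 0.663), Acsm3 by 0.67 ± 0.33 and Qsox1 by 0.42 ± 0.23, each with both PH arrays above both 12-week arrays. For Acsm3 the second PH array (6.55) stood 1.05 above the first (5.50), and the difference was 0.14 without the second and 1.19 without the first. Alox15 (-0.38 ± 0.35) and Hao2 (-0.04 ± 0.44) had PH arrays that overlapped the 12-week arrays. None of the 10 genes passed in any alternative run for this comparison, and the lowest adjusted p among them was 0.0514.

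Relatives of the members, and other genes of the same pathways, were taken from 10 lists. The lists were chosen with earlier results of these data known, so the shares called in them are a description and support nothing further. Of 175 entries, 151 were measured. At 2 against 12 weeks 7 were called (4.64% against 2.23% of all genes), 2 higher and 5 lower at 2 weeks (against 1.29% and 0.937%). At 4 against 12 weeks 1 was called, which was higher (0.662% against 0.110%, with 0.0827% higher and 0.0276% lower). At 2 against 4 weeks 2 were called (1.32% against 0.455%). After PH 0 were called by limma (0.0345% of all genes). There 18 of the 151 had an unadjusted p under 0.05, as had 872 of all 14511 genes. The median size of the difference at 2 against 12 weeks was 0.31, beside 0.24 over all genes. The 7 calls became 11 with arrays centred or scaled, 4 without either PH or either 4-week array and 2 without the second 2-week array. The 2 calls at 2 against 4 weeks became 4 with arrays centred or scaled or without the first 2-week array, and the 1 call at 4 weeks became 2 without the first 12-week array.

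At 2 and 4 weeks against 12 weeks, the differences on which the members were chosen, their measured close relatives differed by less, and none of these was called. After PH this order did not hold for each gene: Qsox2 (0.83), Acsm5 (-0.83) and Hao1 (0.11) differed by more than Qsox1 (0.42), Acsm3 (0.67) and Hao2 (-0.04). Vnn3, the other vanin, read 9.81 and 10.01 at 2 weeks and 8.45 and 8.99 at 12 weeks (1.19 ± 0.29, adjusted p = 0.103), and after PH it differed by -0.52 ± 0.29. Hao1, the liver glycolate oxidase, differed by 0.04 ± 0.49 at 2 weeks and by -0.09 ± 0.49 at 4 weeks. Qsox2 differed by 0.43 ± 0.23 at 2 weeks and by 0.83 ± 0.23 after PH (adjusted p = 0.456), and Qpctl, the Golgi glutaminyl cyclase, by -0.14 ± 0.25 at 2 weeks. Of the medium-chain acyl-CoA synthetases, Acsm4 differed by -0.37 ± 0.22 and Acsm5 by -1.21 ± 0.41 at 2 weeks, the opposite sign to Acsm3. Of the lipoxygenases, Alox5 (0.11 ± 0.26), Alox12 (0.88 ± 0.21) and Alox15b (0.23 ± 0.21) did not pass at 2 weeks. Slc41a3 (0.71 ± 0.28) and Mettl7a (0.48 ± 0.38) also differed with the opposite sign to their relatives Slc41a2 and Mettl7b. The difference between a member and its relative was not tested, since the members had been chosen for theirs.

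**Figure D3:**
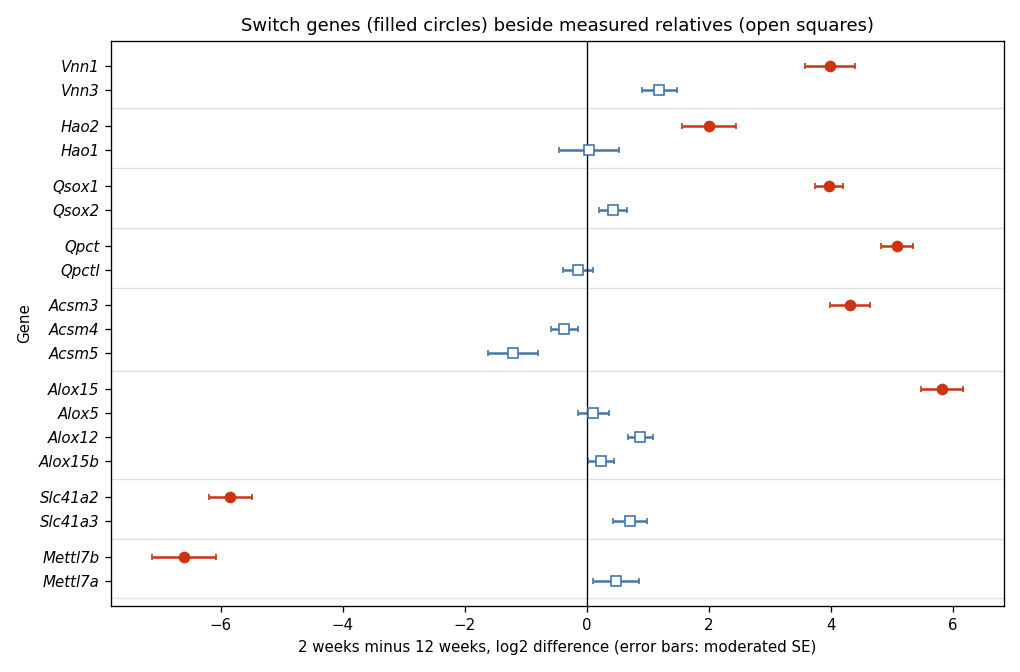
Difference between 2 and 12 weeks (log2, horizontal axis; error bars are the moderated SE) for 8 of the genes, filled circles, and their measured relatives, open squares. The relatives lie between -1.21 for Acsm5 and 1.19 for Vnn3.

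The related genes that did pass were few in each list. In the acyl-CoA synthetase list 1 of 15 was called lower at 2 than at 12 weeks (0.937% of all genes). It was Acss2, the cytosolic acetyl-CoA synthetase (-3.19 ± 0.54, adjusted p = 0.0233, list median -0.30, against -0.01 over all genes). Among lipoxygenases and eicosanoid enzymes 1 of 21 was called higher (1.29% of all genes), Ephx2, the soluble epoxide hydrolase (2.68 ± 0.46, adjusted p = 0.0234, list median 0.07). Disulfide formation had 1 of 15 called higher, Gpx7 (1.59 ± 0.32, adjusted p = 0.0462, list median -0.20). In the peptide processing list (median -0.60) 2 of 12 were called lower, the aminopeptidase Enpep (-1.57 ± 0.26, adjusted p = 0.0232) and the oxoprolinase Oplah (-1.15 ± 0.23, adjusted p = 0.048). The coenzyme A, magnesium, methyltransferase, peroxisomal oxidase and three-finger protein lists had 0 calls in each of the 4 comparisons by limma, with medians at 2 against 12 weeks of 0.00, 0.08, -0.12, -0.16 and -0.08.

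The list of growth hormone signalling and sex-dependent genes, set beside A1bg, had 2 of 14 called lower at 2 than at 12 weeks. The share called lower over all genes was 0.937%. Of the 14, 10 lay below 0 and 4 above (median -0.55). Prlr, the prolactin receptor, differed by -2.30 ± 0.29 (adjusted p = 0.00748) and Cyp2c12, a female-predominant P450 of rat liver, by -3.71 ± 0.23 (adjusted p = 1.7e-04). Cyp2c12 read 9.95 and 9.50 at 2 weeks and 13.42 and 13.51 at 4 weeks, close to the 13.40 and 13.47 at 12 weeks, and so had reached its 12-week level when A1bg and Rup2 had not. Its step from 2 to 4 weeks passed (-3.74 ± 0.23, adjusted p = 8.5e-04). Cyp2c11, a male-predominant P450, was higher at 4 than at 12 weeks by 3.62 ± 0.32 (adjusted p = 0.0057) and differed by -3.70 ± 0.32 between 2 and 4 weeks (adjusted p = 0.00322). Cyp2c11 read 7.76 and 8.71 at 4 weeks and between 4.49 and 4.93 on the other 6 arrays. All groups were described as female, and the reason for this 4-week level of a male-predominant gene was not tested.

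Markers of other cells also differed with age. At 2 against 12 weeks 3 of 8 erythroid markers and 3 of 12 stellate cell and fibroblast markers were called higher by limma, against 1.29% of all genes. All 8 erythroid (median 1.88) and all 12 stellate and fibroblast markers (median 1.38) lay above 0. In the other marker lists (macrophage, neutrophil, eosinophil and mast cell, lymphocyte, endothelial and cholangiocyte) 0 were called in either direction, against 2.23% of all genes. Of the 9 neutrophil markers 0 were below their 12-week level (median 1.58), and of the 10 lymphocyte markers 8 were (median -0.68). The mean over the stellate and fibroblast markers ran from 8.63 to 8.80 at 2 weeks, 8.06 to 9.10 at 4, 7.46 to 7.54 at 12 and 7.64 to 7.73 after PH. For Alox15, which is known from leukocytes, the 11 macrophage markers had a mean of 9.24 to 9.38 at 2 weeks, 9.30 to 9.55 at 4 weeks and 8.85 to 9.31 at 12 weeks. At 2 against 12 weeks 5 of them lay above 0 and 6 below. The largest difference was that of Marco (2.27, adjusted p = 0.112). Marco had means of 9.15 at 2 and 9.23 at 4 weeks, and read 7.94 and 5.81 at 12 weeks. The 11 eosinophil, basophil and mast cell markers had a mean of 4.97 to 5.11 at 12 weeks, and of 5.20 on the lower and 6.0 on the higher 2-week array. Of these 11, 7 were above and 4 below their 12-week level at 2 weeks, with a median difference of 0.20. The member of that list with the largest difference, the eosinophil granule gene Prg2 (3.48, adjusted p = 0.0689), read 10.22 on the first 2-week array and 7.23 on the second, and 6.33 and 6.36 at 4 weeks, while Alox15 read 12.01 on each 2-week array and over 10 at 4 weeks. The part of any of these cells in the members' differences was not tested.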

How the data were processed

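Rat liver RNA was read on 8 Affymetrix Rat Gene ST arrays, 1 for each of 8 samples. The authors deposited log2 levels. The submitters' processing notes name RMA and Affymetrix Expression Console, with no version, filter or genome build. They ran from 1.32 to 14.23, with array medians of 5.981 to 6.171. Of 29214 probe sets, 15316 had 1 gene symbol, 317 several and 13581 none in the platform annotation. Symbols were checked by gene identifier against the RefSeq table of GRCr8, used for names, and 15285 matched. A gene with several probe sets (528) took the one with the highest mean over arrays, which left 14511 genes. The members and lists were chosen with earlier results of these data known, and the promoter motifs after the files were seen.

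All comparisons were contrasts in 1 model of the 4 groups (limma 3.58.1, R 4.3.3; lmFit and eBayes; residual df 4, prior df 4.27), two-sided, with Benjamini-Hochberg adjustment over 14511 genes and a call at an adjusted p under 0.05. The fit was tested on simulated data. The number of arrays limits the precision. Named genes were the 10 members, their nearest measured relatives, up to 4 called genes per list and comparison, and for each member the 2 genes with the highest Pearson r over the 8 arrays among those with at least 0.5 of its SD. Alternatives changed the normalization, the dim-gene filter, the probe set rule, the variance prior, array weights, the groups in the fit, a replicate block, a covariate, the threshold, and left out each array.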

Additional observations from a re-analysis of the deposited data

How the results depend on the processing

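With arrays centred or scaled to the 75th percentile, the median of all genes at 2 against 12 weeks moved from -0.01 to -0.13 and -0.12; the members' differences are far larger. For PH against 12 weeks, the members called stayed at 0 in every alternative run. The 5 calls over all genes became 13 with arrays centred, 9 with the 75th percentile, 3 over all probe sets, 51 with the receptor-gene level (median of 1267 olfactory, vomeronasal and taste receptor genes) as a covariate, and 2 each with array weights, only the 2 groups compared or an adjusted p under 0.01; without 1 array they ran from 1 to 11. At 2 against 4 weeks, the 5 members called ran from 2 to 5 without 1 array. The 66 calls over all genes became 141 with the covariate, 116 with array weights and 31 at an adjusted p under 0.01, and ran from 26 to 110 without 1 array; the 2 related genes called became 4 with arrays centred, scaled or weighted and 5 with the covariate, and ran from 2 to 4. At 2 against 12 weeks, the 323 calls became 181 with array weights, 140 with only the 2 groups and 109 at an adjusted p under 0.01 (101 to 382 without 1 array), and the 7 related genes 11 with arrays centred, scaled or with the covariate, 3 over all probe sets or with array weights, and 2 with only the 2 groups or at an adjusted p under 0.01 (2 to 7 without 1 array). At 4 against 12 weeks, the 16 calls became 10 with array weights, 7 with only the 2 groups and 6 at an adjusted p under 0.01 (5 to 24 without 1 array), and the 1 related gene 0 with the dim-gene filter or only the 2 groups (1 to 2 without 1 array). The lower counts at the stricter threshold follow from it. Cyp2c11, the 1 related gene called at 4 against 12 weeks, lay below the median level, so the dim-gene filter left it out. The cause of the other shifts was not tested.

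Signs turned only for differences that had not passed. After PH against 12 weeks, A1bg differed by 0.04 and Hao2 by 0.00 with the covariate, and Hao2 by 0.00 with arrays centred. Without 1 array in turn, A1bg ran from -0.45 to 0.37, Rup2 from -1.15 to 0.74, Alox15 from -0.80 to 0.03 and Hao2 from -0.25 to 0.18, each turning above 0 without the second 12-week array. A1bg (0.16), Rup2 (0.17) and Hao2 (0.04) also did so without the first PH array. At 2 against 4 weeks Rup2 ran from -1.14 to 0.00, the latter in the fit that leaves out the second 4-week array.

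The replicate numbers were not taken to pair the arrays, since the labels do not say so. The correlation of same-numbered deviations over the 6 pairs of groups ran from 0.023 (2 and 12 weeks) to 0.568 (12 weeks and PH). The highest value was thus that of the groups in the PH comparison. The receptor-gene median of their first arrays was 4.73 (12 weeks) and 4.646 (PH), and of their second arrays 3.912 and 4.164. Whether these arrays share a source was not tested. With the replicate block, all genes called became 41 after PH, 129 at 2 against 4 weeks, 515 at 2 against 12 and 30 at 4 against 12 weeks. Related genes called became 7 at 2 against 4 and 15 at 2 against 12 weeks. Under the block 0 members were called after PH and 5 at 2 against 4 weeks; the lowest adjusted p after PH, 0.0514 for Vnn1, came from it.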
